A study of Mus musculus with 4 samples.

Results

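Probes for the eosinophil-associated ribonucleases Ear1, Ear3, Ear7 and Ear10 gave 5.05 to 6.25 times as much signal in the white fat of mice on a high fat diet as in that of mice on a low fat diet. The Ear6 probe was well above background on the former diet only. Of the eosinophil granule proteins set beside them, Prg2 overlapped between the diets and Epx was not well above background on any array. The group comprised 8 genes, the ribonucleases Ear1, Ear2, Ear3, Ear6, Ear7 and Ear10 and the granule proteins Epx and Prg2. Its probes were the non-control probes that carry one of these names in the scanner files, 7 probes of 41174 on the array. They were 5 ribonuclease probes and 2 granule protein probes, and no probe carried the name Ear2. The genes were chosen on their difference between the diets in these same arrays, so the values below describe that difference and no test of it is given.

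White adipose tissue came from female C57BL/6 mice, an inbred laboratory strain, fed High fat diet 32 (HFD) or CE2, the low fat diet (LFD), from 8 weeks of age for 18 weeks. Each diet had 2 arrays, each hybridised with RNA of tissue mixed from 3 mice. No fat depot is named in the sources used here, and they do not say whether the 2 arrays of a diet held separate pools. The p-values below thus rest on how far these samples differ, and part or all of that spread may be technical. Levels are log2 processed signals minus the 75th percentile of the array, so 0 is the brightness of the 75th percentile itself. A level of 1 probe was not set against that of another, since brightness also depends on the probe.

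The arrays were alike in depth except for HFD replicate 2, which had 21312 probes well above background against 26420 to 27937 on the other 3, and a negative control signal of 109.5 against 63.5 to 97.0. All arrays lay on 1 slide and came from 1 scan. All 12 adipocyte markers were well above background on every array. Adipoq, the hormone adiponectin, read 7.68 and 7.80 in LFD and 7.38 and 7.47 in HFD.

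The Ear genes encode small secreted ribonucleases of the RNase A superfamily, which in the mouse have multiplied into a cluster of near-identical copies. They are named for eosinophils, whose granules also hold eosinophil peroxidase (Epx) and major basic protein (Prg2), the protein of the crystalline granule core. Transcripts of some copies are also known from macrophages and monocytes. In fat, eosinophils are known as a source of type 2 cytokines that act on resident macrophages.

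The probes themselves show how far the copies can be told apart. The Ear3 and Ear10 probes overlap in the mouse build mm9, at chr14:44500848-44500906 and chr14:44500822-44500881, and share an unbroken run of 31 bases, in capitals here. The files list both for the same 4 RefSeq transcripts. The RefSeq gene table names 1 of them Ear2 and 1 Ear10, the files name 1 Ear3, and 1 has no name in either.
Ear3: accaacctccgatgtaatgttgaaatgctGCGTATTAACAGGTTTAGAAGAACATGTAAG
Ear10: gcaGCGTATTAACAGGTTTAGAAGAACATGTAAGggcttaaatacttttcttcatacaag
The values under the names Ear3 and Ear10 are therefore not independent, and signal from Ear2, which has no probe of its own name, cannot be told apart from theirs.

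The Ear7 probe, at chr14:52473799-52473858, covers the same stretch of a related copy. It matches the Ear3 probe at 49 of 60 positions, and capitals mark the 11 bases that differ.
Ear7: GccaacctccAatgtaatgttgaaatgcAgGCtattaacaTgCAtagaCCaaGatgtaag
The files list it for an Ear6 transcript as well as for Ear7. The Ear6 probe, at chr14:52473908-52473967, begins shortly after the end of the Ear7 probe, so these names also stand for 1 locus.
Ear6: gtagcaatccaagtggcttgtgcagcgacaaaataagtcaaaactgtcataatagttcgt
The Ear1 probe, at chr14:44396709-44396768, shares no run longer than 7 bases with any other member's ribonuclease probe, and the only curated RefSeq transcript the files list it for is that of Ear1.
Ear1: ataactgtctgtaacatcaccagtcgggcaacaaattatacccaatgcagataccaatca
By listed transcripts and positions, the 5 ribonuclease probes thus read 3 sets of copies (Ear1; Ear2, Ear3 and Ear10; Ear6 and Ear7) rather than 5 genes. Among the other probes on the array that are not controls, only the Ear3 and Ear10 probes held a run of 20 or more bases of another member's probe, which was each other's. Probes were compared with probes and not with the transcripts of other copies, so a short shared run does not show what a probe reads. The Ear6 and Ear7 probes share a run of only 5 bases. Outside the members, the Ear1 probe shares a run of 11 bases with the Ear5 probe and matches it at 37 of 47 positions. How far imperfect matches between copies add to a signal was not tested.

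The granule protein probes lie elsewhere, Epx at chr11:87678288-87678347 and Prg2 at chr2:84822799-84822858, and each is listed for 1 RefSeq transcript.
Epx: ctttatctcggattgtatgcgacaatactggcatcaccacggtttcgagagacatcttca
Prg2: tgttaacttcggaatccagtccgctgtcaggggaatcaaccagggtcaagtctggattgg
Neither shares a run of 20 bases with a ribonuclease probe.

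The comparison asked how these transcripts differed between HFD and LFD. Ear1, the first-named ribonuclease of the family, read -0.41 and -0.62 in LFD and 1.94 and 1.69 in HFD. Both HFD arrays lay at least 2.11 above both LFD arrays. The mean difference was 2.34 (SE 0.14, n = 2 per diet), a 5.05-fold higher signal in HFD.

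The overlapping Ear10 and Ear3 probes differed by similar amounts. Ear10 read -1.17 and -1.43 in LFD and 1.36 and 1.17 in HFD, a difference of 2.56 (SE 0.14) or 5.90-fold. Ear3 read -2.08 and -2.21 in LFD and 0.56 and 0.44 in HFD, a difference of 2.64 (SE 0.11) or 6.25-fold. For each of them the diets did not overlap, and the replicates of a diet lay far closer to each other than to the other diet.

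At the other locus, Ear7 read -1.95 and -2.03 in LFD and 0.56 and 0.34 in HFD, a difference of 2.44 (SE 0.12) or 5.44-fold. Ear6 read -4.25 and -4.47 in LFD, where it was not well above background on either array, and -2.24 and -2.22 in HFD, where it was well above background on both. Its signal was 4.37-fold higher in HFD, a fold that rests on LFD signals not well above background. A bound was sought by setting the HFD mean against the higher, per LFD array, of the probe's own signal and the dimmest signal well above background. It gave the same 4.37, so the fold is an estimate and not a cautious limit. The fold holds for the scanner's background subtraction only, since with normexp, a model-based background correction, the difference of Ear6 was 1.04.

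Across the 5 ribonuclease probes the median difference was 2.44 and the range 2.13 to 2.64, against a median of 0.01 over all 26057 tested probes. All 5 passed the filter on dim probes, 1 of them (Ear6) through HFD alone. In all 5 both HFD arrays lay above both LFD arrays, as did 35.1% of all tested probes, and all 5 were at least 4-fold higher, as were 0.583% of all tested probes. The genes were selected on this contrast, so nothing is read from these shares. Over 11 other settings of scaling, background, replicates and probe summary, the ribonuclease differences stayed between 1.04 (Ear6) and 2.71 (Ear3). For each of the 5 probes the lowest value was the one under normexp.

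**Figure D1:**
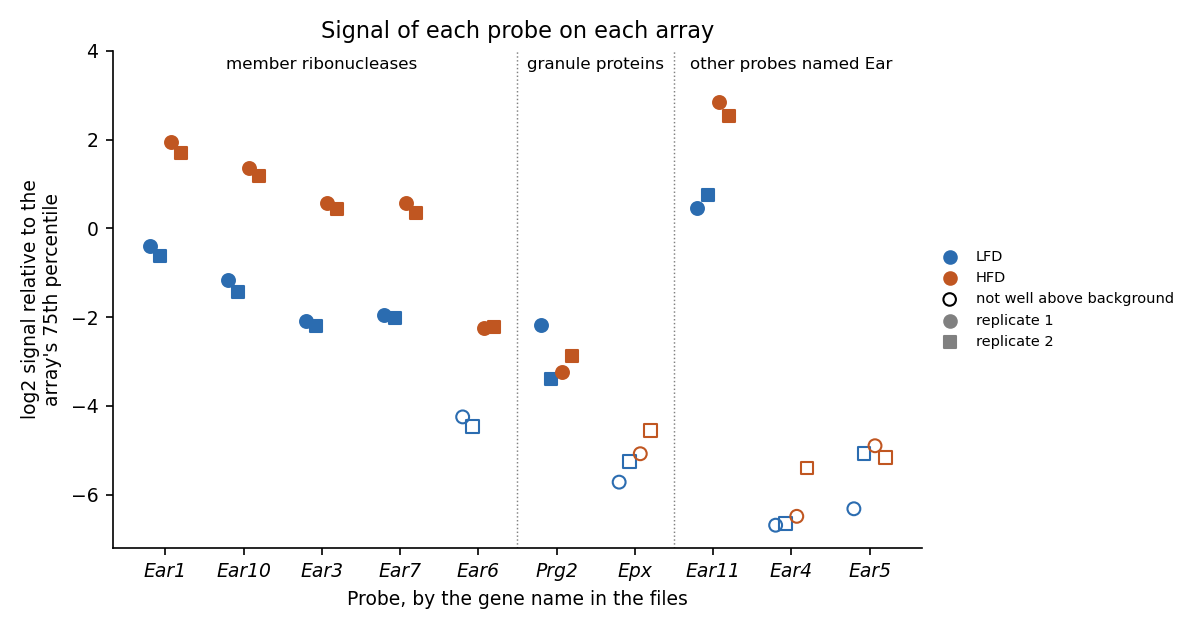
Log2 level over the 75th percentile of the array (vertical axis) for each probe of the group and the 3 other probes named Ear (horizontal axis), with 1 point per array, coloured by diet. Open points were not well above background. For the 5 member ribonucleases and Ear11 the HFD points lie clear above the LFD points, and for Prg2 they lie between the LFD points.

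Of the granule proteins, Prg2 did not show this pattern, and Epx was too dim to be compared. Prg2, the major basic protein, was well above background on all 4 arrays and read -2.19 and -3.40 in LFD and -3.23 and -2.88 in HFD. Both HFD arrays lay between the LFD arrays. The difference was -0.26 (SE 0.44), and its sign rested on LFD replicate 1: without that array it was 0.34, and without LFD replicate 2 it was -0.86. The processed signals of Prg2 were 182 and 81.1 in LFD and 91.6 and 107 in HFD. Negative control spots read 63.5 and 85.9 in LFD and 97.0 and 109.5 in HFD. The control readings may not be on the scale of the processed signals, since some probes dimmer than them counted as well above background. Prg2 counted as well above background on every array, so its level is not judged by these readings. Its signal was dim, below the 75th percentile on each array.

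Epx, the eosinophil peroxidase, was not well above background on any array. Its processed signals were 15.8 and 22.3 in LFD and 25.4 and 33.5 in HFD, and negative control spots read 63.5 and 85.9 in LFD and 97.0 and 109.5 in HFD. Over the arrays the Epx signals ranked in the same order as those of the negative controls, so no fold is given for Epx. In bulk tissue, fewer cells of a type and less RNA per cell cannot be told apart, for these genes and all that follow.

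**Figure D2:**
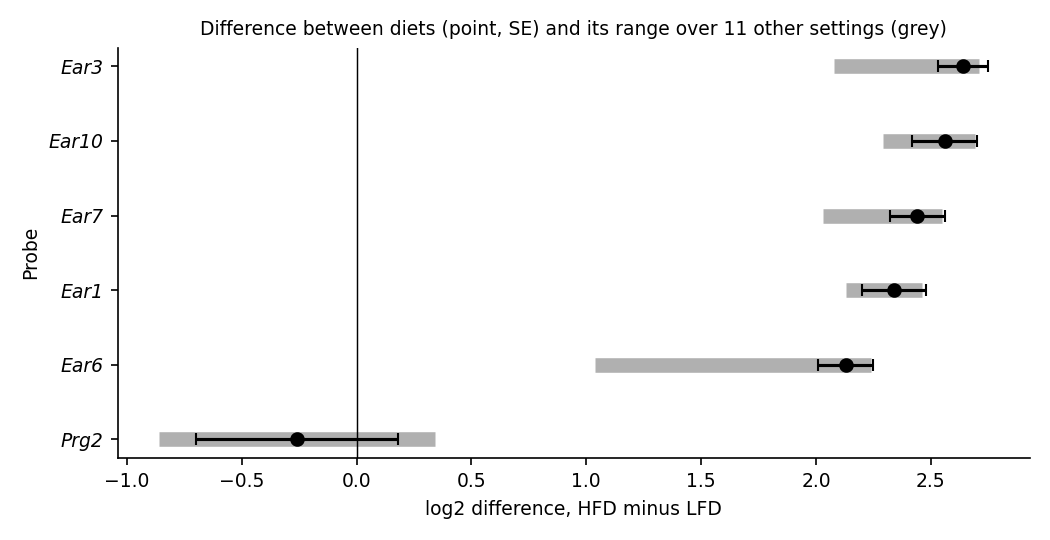
Log2 difference between the diets, HFD minus LFD (horizontal axis), for the tested probes of the group (vertical axis). Points are the means with SE as error bars, n = 2 per diet, and grey bars span the lowest to the highest value over 11 other settings; only the Prg2 bar crosses 0.

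The array also carried 3 probes for other Ear genes, which the choice of members did not use. Ear11, now named Rnase2a in RefSeq, lies apart from the members at chr14:51875064-51875123 and shares no run longer than 7 bases with any member's ribonuclease probe. That too compares probes and not transcripts.
Ear11: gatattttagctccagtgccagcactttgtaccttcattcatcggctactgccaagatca
It read 0.45 and 0.74 in LFD and 2.85 and 2.54 in HFD. The diets did not overlap, and its signal was 4.28-fold higher in HFD, a difference of 2.10 (SE 0.17, adjusted p 0.0164, limma over all tested probes). Its adjusted p was 0.0492 without LFD replicate 1, 0.0482 without LFD replicate 2, 0.0599 without HFD replicate 1 and 0.0675 without HFD replicate 2. Ear4 (signals of 8.06 to 18.6) and Ear5, now Rnase2b (10.4 to 28.8), were not well above background on any array.

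The RefSeq table places Ear1 next to Ear10, and Rnase2b, Ear14 and Rnase2a near one another with Ang2, an angiogenin gene, between Rnase2b and Ear14, all on chromosome 14. Promoters, taken as 250 bases before to 50 after the gene start in GRCm38.p6, were given by RefSeq for 5 of the 8 members (Ear1, Ear2, Ear6, Ear10 and Epx) and for Rnase2a, Rnase2b and Ear14. Those of Ear1 and Ear10 are shown because both genes' probes were higher in HFD. They lie at chr14:43819590-43819889 and chr14:43923547-43923846 on the minus strand, and capitals mark GATAA, the core of the motif bound by GATA factors, on either strand.
Ear1: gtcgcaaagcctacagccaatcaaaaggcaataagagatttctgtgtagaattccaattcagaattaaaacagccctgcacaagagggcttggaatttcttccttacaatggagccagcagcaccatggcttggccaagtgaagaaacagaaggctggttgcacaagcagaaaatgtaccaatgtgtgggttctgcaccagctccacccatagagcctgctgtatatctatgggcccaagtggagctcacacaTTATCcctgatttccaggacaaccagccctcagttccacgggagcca
Ear10: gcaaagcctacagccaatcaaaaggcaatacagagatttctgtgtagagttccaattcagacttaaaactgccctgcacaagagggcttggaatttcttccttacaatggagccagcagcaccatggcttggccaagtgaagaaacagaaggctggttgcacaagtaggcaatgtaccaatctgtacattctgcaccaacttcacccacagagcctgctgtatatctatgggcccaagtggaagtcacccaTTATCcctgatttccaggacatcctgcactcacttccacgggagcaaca
In a global alignment these promoters were identical at 276 of 297 aligned bases (92.9%), and those of Ear1 and Ear2 at 294 of 297 (99.0%). Over the 15 pairs of Ear1, Ear2, Ear6, Ear10, Rnase2a and Rnase2b the identity was 86.5% to 99.0%, against 60.6% to 66.1% between Epx and these 6. Ear14 stands outside this range: its promoter was identical to those of Ear10 and Ear2 at 67.4% and 64.3% of the aligned bases, and with the other 4 it aligned over 64 to 90 bases only, at 88.5% to 92.2%.

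GATAA was found in all 7 ribonuclease promoters and not in that of Epx, and 25.4% of 32851 promoters of the same length hold it. Apart from Ear14, these promoters are close copies of one another and not independent observations. The 7 include Rnase2b, whose probe was not well above background. They also include Ear14, whose transcript is among those listed for the Ear4 probe, likewise not well above background. GAGGAA, the core of a motif bound by the myeloid factor PU.1, was in the Rnase2a promoter alone (28.3% of all promoters), and TTCNNNGAA, a STAT motif, in that of Ear14 alone (8.3%). TGANTCA, the AP-1 motif, was in none of the 8 (7.8%). Both strands were searched, and a match describes the letters only.

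The wider ribonuclease A family had calls in both directions. Of a list of 20 genes, the other family members and the inhibitor Rnh1, 9 had a tested probe, 7 had no probe and 4 were below the filter. In limma 2 were higher and 1 was lower in HFD, with a median difference of -0.30, against a median of 0.02 over all 17739 tested genes, of which 5.69% were called higher and 5.61% lower. The 2 were Ear11 and Rnh1, the cytosolic ribonuclease inhibitor, which was 1.54-fold higher (adjusted p 0.0346). Rnase4, a secreted ribonuclease broadly made in tissues, was 1.46-fold lower (adjusted p 0.0399). Angiogenin (Ang), which shares its promoters with Rnase4, read -0.92 and -0.76 in LFD and -1.38 and -1.20 in HFD and did not pass (adjusted p 0.0878). With HFD replicate 1 or HFD replicate 2 left out, 0 genes of this list passed in limma, with 3 and 5 at an unadjusted p under 0.05. Without LFD replicate 1 or LFD replicate 2, Ear11 alone passed. Over all tested genes limma called 2 higher and 0 lower without HFD replicate 1 (1957 and 2142 at an unadjusted p under 0.05) and 6 and 3 without HFD replicate 2. With 1 array left out, the lone array of that diet is assumed to vary like the other diet's, and the fit keeps 1 residual degree of freedom.

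Among 18 genes of the eosinophil lineage and surface, 12 were tested, and 7 were higher and 0 lower in HFD, with 1 lower at an unadjusted p under 0.05 in limma. Their median difference was 0.78, against 0.02 over all tested genes, of which 5.69% were called higher and 5.61% lower. Ccr3, the eotaxin receptor of eosinophils, was 2.13-fold higher (adjusted p 0.024), at -3.45 and -3.23 in LFD and -2.18 and -2.32 in HFD. Only 1 of its 2 probes passed the filter. Ccr3 did not pass in limma when any 1 array was left out, whichever diet that array came from. The other 6 genes called higher are ones that cells other than eosinophils also express. Csf2ra (2.43-fold), Csf2rb (1.74-fold) and Csf2rb2 (2.07-fold) encode chains of receptors for GM-CSF and related cytokines. Pirb (2.72-fold) and Fcgr3 (2.21-fold) encode an inhibitory receptor and an immunoglobulin receptor, and Il1rl1 (1.68-fold) the receptor of interleukin-33.

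Several genes of this list were below the filter. Il5ra, the interleukin-5 receptor, Prg3, a homologue of major basic protein, and Hrh4, a histamine receptor, were not well above background on any array. Siglecf, a surface lectin of eosinophils, was so on 1 HFD array and no other, at -3.23 against -4.42 on the other HFD array and -5.78 and -6.85 in LFD. Gata1, a transcription factor that eosinophils need, was well above background on 1 array of each diet. Besides the genes called, 5 of this list were tested and did not pass in limma, all well above background on every array. They included Cd24a (adjusted p 0.738), Itga4 (adjusted p 0.205) and Cebpa (adjusted p 0.137). Cebpa, with a difference of -0.43, was the 1 lower at an unadjusted p under 0.05 in limma. Ptgdr2, a prostaglandin receptor, read -2.36 and -2.25 in LFD and -2.02 and -1.92 in HFD (adjusted p 0.106). Alox15, a lipoxygenase of eosinophils and resident macrophages, read -2.50 and -2.61 in LFD and -2.21 and -2.83 in HFD, and the diets overlapped (adjusted p 0.922). The count of 7 became 5 without LFD replicate 1, 3 without LFD replicate 2 and 0 with either HFD replicate left out, where 7 genes still had an unadjusted p under 0.05 in limma.

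Signals that recruit or sustain eosinophils went in different directions. Of 23 genes 18 were tested, 3 were higher and 2 lower, with a median difference of 0.54. Over all tested genes 5.69% were higher and 5.61% lower, with a median of 0.02. Ccl11, the chemokine eotaxin, was 2.00-fold higher (adjusted p 0.0349), at 1.70 and 1.92 in LFD and 2.67 and 2.94 in HFD. Ccl24, a second eotaxin, was 1.63-fold lower (adjusted p 0.0325), at 2.99 and 2.86 in LFD and 2.20 and 2.24 in HFD. The diets did not overlap for either of them.

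Ccl7, a chemokine for monocytes that also binds Ccr3, was 14.1-fold higher (adjusted p 0.0162). Chil3, a chitinase-like protein of alternatively activated macrophages, was 3.07-fold higher (adjusted p 0.0401). Il33, the cytokine that acts on type 2 innate lymphoid cells, was 2.15-fold lower (adjusted p 0.0393), at 0.90 and 0.81 in LFD and -0.47 and -0.02 in HFD. Il5, the growth factor of eosinophils, was well above background on only 1 array of each diet and was not tested. Ccl5 (adjusted p 0.310), Retnla (adjusted p 0.0703) and Arg1 (adjusted p 0.224), a chemokine and markers of alternatively activated macrophages, did not pass. Leaving out LFD replicate 1 gave 2 higher and 0 lower, and leaving out LFD replicate 2 gave 1 and 1. Without HFD replicate 1 or HFD replicate 2 they were 0 in either direction, with 8 and 10 genes at an unadjusted p under 0.05 in limma.

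Markers of other cells that could carry Ear transcripts were listed beside the ribonucleases. Of 22 macrophage markers, all well above background on at least 1 array of each diet, 14 were higher and 3 lower in HFD, with a median difference of 0.84. The shares over all tested genes were 5.69% higher and 5.61% lower, with a median of 0.02. The summed level of the macrophage markers, in multiples of the array's 75th percentile, was 315 and 285 in LFD and 508 and 523 in HFD. Itgax, an integrin of macrophages and dendritic cells, was 8.23-fold higher by its brightest probe (adjusted p 0.010), while its other tested probe differed by -0.95 (SE 1.04, adjusted p 0.548). Cd68, a lysosomal protein of macrophages, was 4.86-fold higher (adjusted p 0.0137). Timd4, Lyve1 and Cd163, markers of resident macrophages, were lower, by 3.26-fold for Timd4 (adjusted p 0.024). The part of macrophages in the ribonuclease signal was not tested.

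The other immune lists gave the following counts and summed levels, beside shares of 5.69% higher and 5.61% lower over all tested genes. Non-classical monocyte markers, with 1 of 9 higher and 0 lower, summed to 10.4 and 7.47 in LFD and 8.89 and 10.6 in HFD. Treml4, a receptor of that monocyte class, was the 1 called higher (2.11-fold, adjusted p 0.047), and 1 was lower at an unadjusted p under 0.05 in limma. Markers of peritoneal and alveolar macrophages had 4 higher and 2 lower of 12 and summed to 15.7 and 14.7 in LFD and 16.4 and 17.5 in HFD. Krt79 was 3.78-fold higher (adjusted p 0.0208) and Gata6, the factor of peritoneal macrophages, 2.43-fold lower by its brightest probe (adjusted p 0.0164). Of its other tested probes, 1 was also lower, by a difference of -0.87 (adjusted p 0.0261), and 1 differed by 0.20 (adjusted p 0.447).

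Neutrophil markers had 3 higher and 1 lower of 10 and summed to 2.71 and 2.42 in LFD and 3.55 and 3.50 in HFD. S100a8, a calcium-binding protein of neutrophils and monocytes, was 11.4-fold higher in limma (adjusted p 0.010). S100a9 was only 1.23-fold higher and did not pass (adjusted p 0.288). The 1 called lower was Mmp9 (2.81-fold, adjusted p 0.0383). Elane, Camp, Ngp, Mmp8 and Cxcr2, further neutrophil and granule genes of the list, were not well above background on any array. Others of the list passed the filter. Ctsg (1.46-fold, adjusted p 0.0425) and Csf3r (1.86-fold, adjusted p 0.0265) were called higher in limma. Mpo (adjusted p 0.057), Ltf (adjusted p 0.228) and Prtn3 (adjusted p 0.877) were tested and did not pass. Mast cell and basophil markers summed to 12.3 and 10.2 in LFD and 8.47 and 9.67 in HFD, with 0 of 8 higher in limma (1 at an unadjusted p under 0.05) and Gata2, a transcription factor of these cells, lower (1.54-fold, adjusted p 0.0432). T cell and innate lymphoid markers summed to 5.65 and 2.90 in LFD and 4.65 and 5.21 in HFD, with 2 of 10 higher. Their part in the ribonuclease signal was not tested.

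Mesothelium markers summed to 45.5 and 48.6 in LFD and 19.4 and 15.5 in HFD, and 11 of 12 were lower, among them Krt18, a keratin (6.59-fold, adjusted p 0.0137). Adipocyte markers summed to 1600 and 1770 in LFD and 1510 and 1620 in HFD, with 1 of 12 lower, the hormone Retn. Over all tested probes 5.38% were called higher and 5.27% lower.

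**Figure D3:**
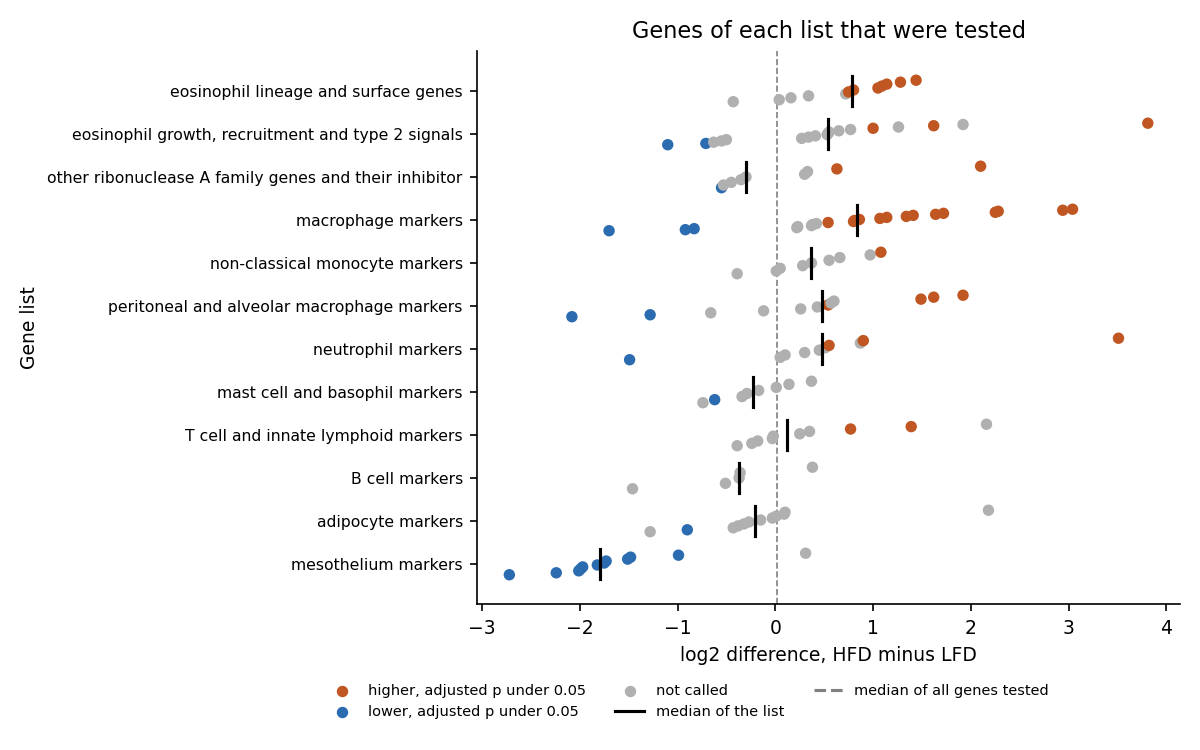
Log2 difference, HFD minus LFD (horizontal axis), of each tested gene of 12 lists (vertical axis), coloured by its call in limma at an adjusted p under 0.05. Black bars are list medians and the dashed line is the median of all tested genes. Recruitment signals reach 3.81, neutrophil markers 3.51 and macrophage markers 3.04, and mesothelium markers lie mostly below 0.

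The genes whose pattern over the 4 arrays was most like the mean of the 5 ribonuclease probes were, in order, Cd68, Cd84, Cck, Cox6a2 and Myo1f. Members, uncharacterised transcripts, and immunoglobulin and T cell receptor segments were passed over, here and for Prg2 below. Likeness was the Euclidean distance between mean-centred log2 signals, and the distances were 0.170 for Cd68, 0.189 for Cd84, 0.208 for Cck, 0.211 for Cox6a2 and 0.222 for Myo1f. The mean-centred ribonuclease profile was -1.12 and -1.30 in LFD and 1.29 and 1.13 in HFD, so a gene close to it differs by about as much between the diets. Cd68 read 0.84 and 0.79 in LFD and 3.18 and 3.02 in HFD. Cd84 is a surface receptor of leukocytes and Myo1f a myosin of myeloid cells. Cck read -4.23 and -4.27 in LFD and -1.94 and -1.86 in HFD. Cox6a2 read -2.97 and -3.06 in LFD and -0.63 and -0.91 in HFD. Which cells carry these transcripts was not tested. The profile fixes the direction of these genes, so no test of them is given here.

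Prg2 lay among other genes. Those most like it were Mpp4, Ptprcap, Pacsin1, Cd247 and Cd27, at distances of 0.0915 to 0.182, and each of these 5 was highest on LFD replicate 1. Ptprcap, Cd247 and Cd27 encode proteins of lymphocytes, and Cd247, a chain of the T cell receptor complex, read -0.99 and -2.26 in LFD and -1.94 and -1.50 in HFD. Markers of B cells summed to 6.16 on LFD replicate 1 and to between 1.1 and 2.07 on the other 3 arrays. None of the 5 tested B cell markers was called in limma, with 1 higher and 0 lower at an unadjusted p under 0.05. The part of lymphoid tissue in the Prg2 signal was not tested.

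**Figure D4:**
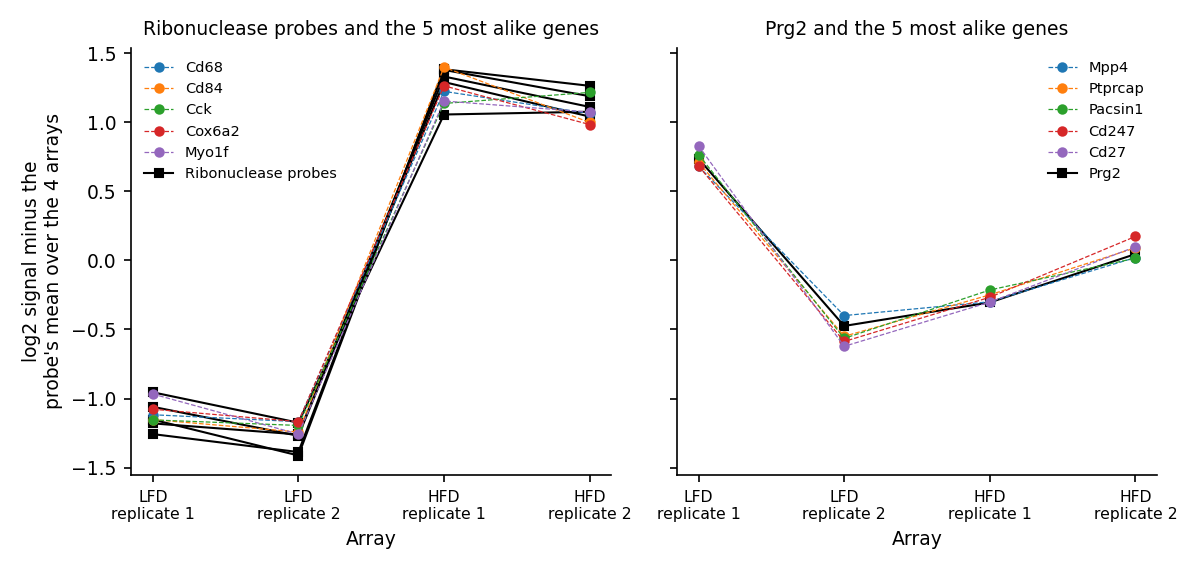
Log2 signal minus the probe's mean over the 4 arrays (vertical axis) on each array (horizontal axis; replicates have no order and lines only join the points of a probe). The left panel has the 5 ribonuclease probes and the 5 genes most like their mean, low on both LFD and high on both HFD arrays, and the right panel has Prg2 and the 5 genes most like it, highest on LFD replicate 1.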

How the data were processed

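RNA of 4 samples was measured on 1-colour Agilent arrays with 60-base probes, 500 ng of labelled RNA each, per the labels. Spot intensity values were deposited by the authors as scanner output with background subtracted and no scaling between arrays, per the file headers (Feature Extraction 11.0.1.1; 11.5.1.1 per the submitters' processing notes). The value table that the authors deposited is a ratio, each signal over 1 constant per array that lies close to its 75th percentile, as division of the scanner values by it showed. Its column medians were 0.117, 0.127, 0.130 and 0.131, and it is linear and uncentred. It served as an alternative.

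Processed signals were put on the log2 scale here and the 75th percentile of each array was subtracted. Spots that the deposited flags mark as outliers were left out and spots of a probe averaged. A probe entered the test if it was well above background on every array of 1 diet or both. The test was limma 3.58.1 (R 4.3.3, two-sided, 2 residual and 2.24 prior degrees of freedom) and Benjamini-Hochberg adjustment, with a threshold of 0.05. The fit was checked on simulated data. A gene was represented by its brightest tested probe, and names were updated through RefSeq accessions (27668 of 41174 probes matched). Probe positions are those of the files, in mm9. Promoters were aligned with Biopython 1.88.

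The members and the gene lists were chosen with earlier results of these data known. Named by rule were all Ear probes, and up to 8 called genes and a set panel from the eosinophil and ribonuclease lists. Also named by rule were up to 2 called genes per other list and the 5 genes nearest to a profile. Further genes of some lists were added to show their other calls and dim members. The number of arrays limits the precision. Alternatives were other background, scaling, filters, thresholds, probe summaries and fits, and each array left out. Slide was not fitted, since all arrays shared 1.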

Additional observations from a re-analysis of the deposited data

How the results depend on the processing

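The differences of Ear1, Ear3, Ear6, Ear7 and Ear10 kept their sign under all 11 alternatives run for them. Most of these could not change a sign. The replicate block and the mean of a gene's probes gave the main values again, and the deposited table holds the same signals over a constant. Diets that do not overlap also keep their sign with 1 array left out. The members were chosen on this contrast, so nothing is read from the kept signs. Their median of 2.44 was 2.08 under normexp and 2.33 to 2.55 with 1 array left out. That of Prg2, -0.26, ranged from -0.86 (without LFD replicate 2) to 0.34 (without LFD replicate 1). Counts of calls depended on the fit. Over all genes, 1009 higher and 995 lower became 1597 higher under normexp, 1592 higher with probes well above background on all arrays, 1815 and 1816 with eBayes trend and robust options, and 2254 and 2204 at a threshold of 0.10. Over all probes, 1403 and 1373 became 2223 higher under normexp, 2231 higher with the stricter filter, 2469 and 2431 with trend and robust options, and 3201 and 3151 at 0.10. With 1 array left out there were 2 to 466 genes higher and 0 to 335 lower, and 2 to 628 probes higher and 0 to 418 lower. The left-out ranges were 0 to 5 for the eosinophil lineage list, 0 to 2 higher and 0 to 1 lower for the recruitment list, and 0 to 1 higher and 0 lower for the ribonuclease A list. With no filter on dim probes, limma called 0 genes or probes in either direction, although 3372 genes were higher and 2236 lower at an unadjusted p under 0.05. The recruitment list had 6 higher under normexp, 6 and 4 with the stricter filter, 5 and 4 with trend and robust options and 8 and 4 at 0.10, where the ribonuclease A list had 3 lower. Replicate numbers are shared by the diets, but deviations of replicate 1 from the diet means correlated at only -0.00458, so the numbers were not taken as pairs. With the replicate block, 144 genes were higher and 137 lower, 179 and 172 probes, and 0 genes of the 3 eosinophil and ribonuclease lists, with 8 of the lineage list higher at an unadjusted p under 0.05 in limma. The cause of these changes was not tested. Dim signals, those of Ear6, Epx, Prg2, Siglecf and Il5ra, limit what can be said of these genes.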
